A study of Homo sapiens with 6 samples.

Results

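The ovarian carcinoma lineage and mesothelial markers described here are 9 genes, PAX8, SOX17, WT1, EMX2, ESR1, MUC16, FOLR1, MSLN and LRRN4, taken by symbol from the 20061 rows of the deposited gene table. They were measured by sequencing of polyadenylated RNA in HEYA8 cells, an established human ovarian cancer line that the submitters label as low grade serous. The first group carried a lentiviral short hairpin RNA that targets ETS1, which encodes an ETS transcription factor (shETS1, 3 samples), and the second a hairpin against luciferase, which human cells lack, as the negative control (shLuciferase, 3 samples). All cells expressed their hairpin stably and grew under puromycin without further treatment. How many hairpins or clones stand behind each group is not given in the sources used here, so effects of lower ETS1 and of the hairpin itself cannot be told apart. The authors' table lists, for each gene, 1 FPKM value in each group (sequenced fragments per length of transcript and per size of the library), so every level below is a group value of the authors, with no spread between samples and no known depth.

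Carcinomas of the ovary and fallopian tube share features with epithelia that arise from the Mullerian duct and, at the peritoneal surface, with mesothelium. PAX8, SOX17 and EMX2 are transcription factors of the developing female tract, WT1 is a zinc finger factor of both serous carcinoma and mesothelium, and ESR1 is the estrogen receptor alpha. MUC16, MSLN and FOLR1 encode surface proteins used as markers or drug targets in this disease: a large mucin, its binding partner mesothelin and the folate receptor alpha. LRRN4 encodes a leucine-rich repeat membrane protein that marks mesothelial cells.

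The 9 genes fell into 2 sets by level. PAX8, MSLN, WT1, SOX17 and LRRN4 each exceeded 0.5 FPKM in both groups and were tested by the authors. FOLR1, EMX2, ESR1 and MUC16 stayed below 0.1 FPKM in both groups and were not tested. Of the 5 tested markers, 1 was called changed at a q-value of at most 0.05 (q is the p-value adjusted over all tested genes), and that was a fall of LRRN4 in shETS1. Over all 11952 tested genes 0.812% were called, 0.544% higher and 0.268% lower, so 1 of 5 is a count too small to set the markers apart. The targeted gene ETS1 was at 17.9 FPKM in shETS1 cells and 41.4 FPKM in shLuciferase cells, and the authors' deposited table lists its q-value as 0.00964.

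**Figure D1:**
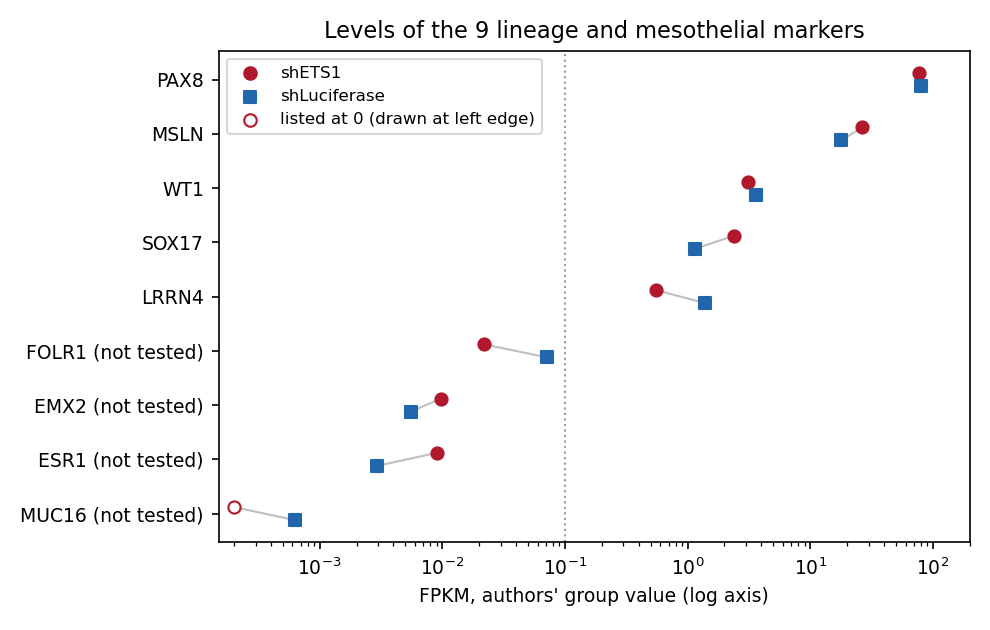
Level of each of the 9 markers in FPKM (horizontal log axis), with shETS1 as red circles and shLuciferase as blue squares; the open circle is a value listed at 0, drawn at the left edge, and the dotted line marks 0.1 FPKM. PAX8 is the most abundant at 76.8 and 79.7 FPKM, and the 4 genes not tested lie left of the dotted line in both groups.

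PAX8 was the most abundant of the markers. It stood at 76.8 FPKM in shETS1 cells and 79.7 FPKM in shLuciferase cells, a log2 fold change of -0.05. In shETS1 cells 93.6% of the genes in the table had a lower level than PAX8, and in shLuciferase cells 93.7%. The authors' deposited table gives PAX8 (hg19 chromosome 2, 113973574 to 114036498) a p-value of 0.826 and a q-value of 1.00. Among 1657 tested genes with a mean within a factor of 2 of its own, the smallest change that was called was 1.83-fold, so the test at this level called no gene with a change as small as that of PAX8.

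EMX2, a homeobox factor of the urogenital ridge, was among the markers below 0.1 FPKM in both groups. It was listed at 0.00974 FPKM in shETS1 cells and 0.00554 FPKM in shLuciferase cells. ESR1 was listed at 0.00907 FPKM in shETS1 cells and 0.00296 FPKM in shLuciferase cells. No fold is read from such levels, which were marked as not tested. The sequences before the annotated starts of PAX8 and EMX2 are shown because these developmental factors differ widely in level. Each also has 1 promoter window in the table used, and ETS factors bind around the core GGAA. Each sequence is the 250 bases upstream of the start, 5′ to 3′ on the gene's strand, from RefSeq on GRCh38.p14, a different build from the deposited loci; capitals mark GGAA or its reverse complement TTCC.
PAX8, minus strand of chr2:113278922-113279171: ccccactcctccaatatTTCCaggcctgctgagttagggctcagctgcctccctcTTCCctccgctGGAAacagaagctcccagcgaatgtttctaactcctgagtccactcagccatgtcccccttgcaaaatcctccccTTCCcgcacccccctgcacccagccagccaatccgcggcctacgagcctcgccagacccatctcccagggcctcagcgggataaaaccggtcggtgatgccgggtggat
EMX2, plus strand of chr10:117542496-117542745: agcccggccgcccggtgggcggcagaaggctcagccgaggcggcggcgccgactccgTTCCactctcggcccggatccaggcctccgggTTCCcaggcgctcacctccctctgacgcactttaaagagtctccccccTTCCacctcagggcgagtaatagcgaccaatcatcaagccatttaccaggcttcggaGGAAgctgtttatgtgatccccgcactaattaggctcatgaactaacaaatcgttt
Both stretches hold 4 copies of the core and no copy of the longer ETS motif CCGGAAG on either strand. The PAX8 stretch has 11 CG dinucleotides and 61.6% GC, and the EMX2 stretch has 20 and 60.4%. In the table of RefSeq promoter windows of 300 bases used here, 5 of the 9 markers were matched (PAX8, EMX2, WT1, ESR1 and MUC16, 14 windows in all); LRRN4, SOX17, MSLN and FOLR1 were not analysed here. None of the 14 windows held CCGGAAG, which 10.3% of all 35116 windows hold. The core GGAA was present in every one of the 14 windows and in 95.5% of all windows, so its presence carries little information. These matches are letters in a window and not evidence of binding or of its absence.

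WT1 (hg19 chromosome 11, 32409322 to 32457081) was at 3.13 FPKM in shETS1 cells and 3.58 FPKM in shLuciferase cells. Its log2 fold change was -0.19, and the authors' deposited table lists p = 0.496 and q = 1.00. Of 3209 tested genes of like level, 53.1% had a change at least as large. Their median log2 fold change without regard to sign was 0.21, so the change of WT1 was of ordinary size for its level. SOX17 (hg19 chromosome 8, 55370495 to 55373456), an SRY-related factor that acts with PAX8 in ovarian cancer cells, was at 2.38 FPKM in shETS1 cells and 1.15 FPKM in shLuciferase cells. The level in shETS1 was thus 2.07-fold that in shLuciferase, a log2 fold change of 1.05. It did not pass the test: the authors' deposited table lists p = 0.00145 and q = 0.110. Among 2647 tested genes of like level, 61 (2.30%), SOX17 included, had a change at least as large and 32 were called, the smallest of them at 1.96-fold. SOX17 therefore lay within the range of fold changes where some genes of its level were called and others were not.

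MSLN (hg19 chromosome 16, 810765 to 818865) was the most abundant of the surface antigens. It was at 26.5 FPKM in shETS1 cells and 17.9 FPKM in shLuciferase cells, a log2 fold change of 0.57. It did not pass the test: the authors' deposited table lists p = 0.0309 and q = 0.597. An unadjusted p under 0.05 was reached by 829 genes, 6.94% of all tested. The smallest called change among 3232 genes of like level was 1.89-fold, above the 1.48-fold of MSLN. MUC16, the partner that mesothelin binds, was listed at 0 in shETS1 cells and at 0.000625 FPKM in shLuciferase cells. FOLR1 was listed at 0.0218 FPKM in shETS1 cells and 0.0713 FPKM in shLuciferase cells, and reads may be shared with its paralogs FOLR2 and FOLR3. Mesothelin RNA was thus present at a level above 80.1% of the genes in the table in shLuciferase cells, while MUC16 and FOLR1 RNA was barely listed or at 0.

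LRRN4 (hg19 chromosome 20, 6021425 to 6034694) was the called marker. It fell to 0.551 FPKM in shETS1 cells, against 1.39 FPKM in shLuciferase cells, 2.52-fold lower (log2 fold change -1.33). The authors' deposited table gives a p-value of 0.00015 and a q-value of 0.0242. Of 2113 tested genes of like level, 21 (0.994%), LRRN4 included, had a change at least as large, and 21 were called. The smallest called change was 2.01-fold, so the equal counts do not stand for the same genes. Both levels are low, and with 1 FPKM added to each the log2 ratio was -0.62. No other row of the table overlaps the locus of LRRN4, nor that of any other of the 9 markers. Antisense RNAs absent from the table's rows were not analysed here, and without strand their reads could not be told apart. The call was made over all tested genes. LRRN4 has a mean of 0.970 FPKM, so a minimum mean of 1 FPKM removes it before any p-value is adjusted. That setting therefore cannot show whether its call depends on the adjustment.

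**Figure D2:**
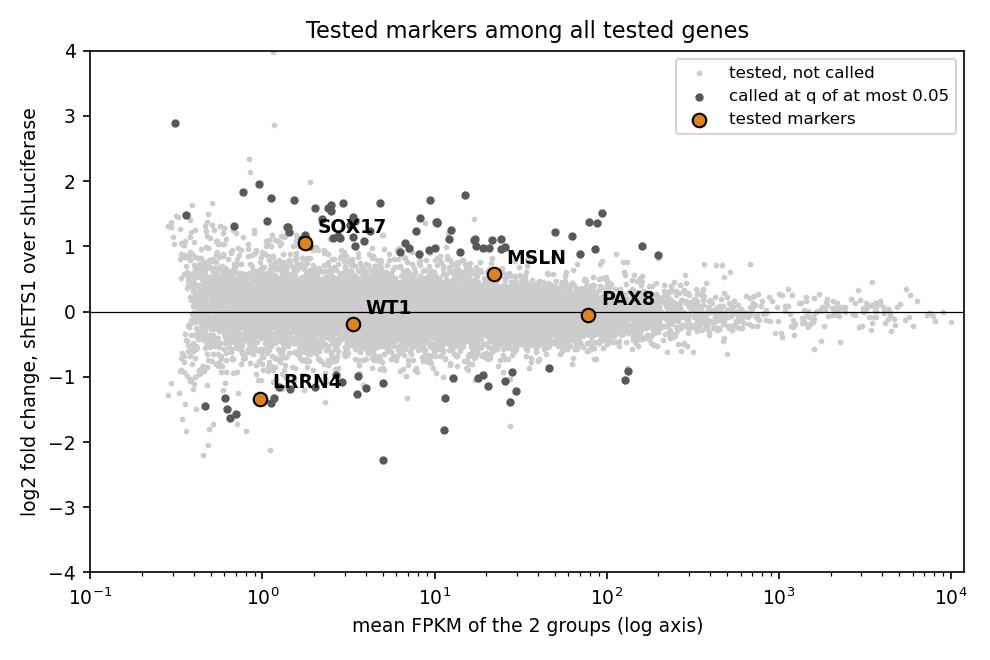
The vertical axis is the log2 fold change of shETS1 over shLuciferase, against the mean of both groups in FPKM (horizontal log axis) for tested genes within 4 log2 units, with the 5 tested markers in orange and called genes in dark grey. LRRN4 lies among called genes at -1.33, SOX17 at 1.05 was not called, and PAX8 and WT1 lie near 0.

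The mesothelial and Mullerian markers were next set beside wider lists of genes of the same roles, which include the markers themselves. Some genes stand on several lists. Over all tested genes 0.812% were called, so lists of this size are expected to hold few or no calls. The counts of called genes given for the lists here and below are too small to set any list apart. On a list of 33 genes described in mesothelial cells, 18 were tested, LRRN4 was called lower and none was called higher. For the 15 tested genes that averaged 1 FPKM or more over both groups, the median log2 fold change was -0.06, against 0.02 over all 10673 such genes. BNC1, a zinc finger factor of mesothelium, was at 9.59 FPKM in shETS1 cells and 10.2 FPKM in shLuciferase cells. UPK3B, a uroplakin of the mesothelial surface, was at 2.61 FPKM in shETS1 cells and 2.95 FPKM in shLuciferase cells. CALB2, which encodes calretinin, was at 1.04 FPKM in shETS1 cells and 0.793 FPKM in shLuciferase cells, and podoplanin (PDPN) at 36.4 FPKM in shETS1 cells and 29.1 FPKM in shLuciferase cells. None of these 4 was called. ITLN1 and KRT5, further mesothelial markers, were listed at 0 in both groups, and HP and PRG4 were below 0.1 FPKM in both. Of the 33 genes on the list, 6 were at 0 in both groups and 12 (those 6 included) were below 0.1 FPKM in both. The cells thus held some but not all of the RNAs of that cell type. The most abundant of the list were the keratins KRT18, at 1498 FPKM in shETS1 cells and 2044 FPKM in shLuciferase cells, and KRT8, at 1288 FPKM in shETS1 cells and 1913 FPKM in shLuciferase cells. Neither keratin was called. The deposited table gives both the same locus, and both have processed copies in the genome, so their reads may be shared.

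On a list of 30 transcription factors of the Mullerian tract, 14 were tested and 1 was called, as higher. This was SOX9, a factor of ducts and of the developing gonad, at 4.61 FPKM in shETS1 cells and 2.29 FPKM in shLuciferase cells (2.01-fold, log2 fold change 1.01), and the authors' deposited table lists q = 0.0445. The median log2 fold change of the 14 was -0.16, with 3 above 0 (SOX17, SOX9 and NR2F2) and 11 below. This median and these counts are not corrected for the trend with GC content described below. With that trend removed, PAX8 and FOXL2 were also above 0, at 0.05 each, and SOX17, SOX9 and NR2F2 stayed above it. NR2F2, a nuclear receptor and the most abundant of the list after PAX8, was at 25.7 FPKM in shETS1 cells and 22.9 FPKM in shLuciferase cells. The other SOX factors of the SOX17 subgroup did not pass the test: SOX7 was at 6.63 FPKM in shETS1 cells and 8.16 FPKM in shLuciferase cells, with a locus that overlaps PINX1, and SOX18 at 0.872 FPKM in shETS1 cells and 1.40 FPKM in shLuciferase cells. Within that subgroup the value in shETS1 was higher for SOX17 and lower for SOX7 and SOX18; whether these changes differ from one another was not tested. PAX2, the close relative of PAX8 in kidney and oviduct, was listed at 0 in both groups.

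Surface and secreted antigens of ovarian carcinoma had no called gene among 13 tested of 36, where 0.812% of all tested genes were called. For the 7 tested genes that averaged 1 FPKM or more, the median on the log2 scale was 0.44, with 6 above 0; over all 13 tested genes it was 0.18. WFDC2, which encodes the serum marker HE4, was at 0.978 FPKM in shETS1 cells and 0.935 FPKM in shLuciferase cells. EPCAM was at 1.82 FPKM in shETS1 cells and 1.71 FPKM in shLuciferase cells. A further 7 genes of the list, among them VTCN1 and SLC34A2, were listed at 0 in both groups, and 19 (those 7 included) were below 0.1 FPKM in both.

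The near absence of ESR1 and FOLR1 could be set beside the genes around them. On a list of 32 estrogen receptors and target genes, 19 were tested and none was called, with a median log2 fold change of -0.14 over the 16 that averaged 1 FPKM or more. The most abundant were IGFBP4, at 457 FPKM in shETS1 cells and 507 FPKM in shLuciferase cells, and CCND1, at 199 FPKM in shETS1 cells and 198 FPKM in shLuciferase cells, both of which many cells express without estrogen. PGR, the progesterone receptor and a classical target, was listed at 0 in shETS1 cells and 0.00124 FPKM in shLuciferase cells, and TFF1 at 0 in both. Of 24 genes of folate uptake and the folate cycle, 21 were tested and none was called, with a median of -0.02 over 17 genes. SLC19A1, the reduced folate carrier, was at 46.9 FPKM in shETS1 cells and 58.3 FPKM in shLuciferase cells, far above FOLR1 on the same length-scaled measure, although its locus overlaps COL18A1 and some of its reads are uncertain. The most abundant folate genes were SHMT2, whose locus overlaps NDUFA4L2, at 225 FPKM in shETS1 cells and 226 FPKM in shLuciferase cells, and ATIC, at 129 FPKM in shETS1 cells and 124 FPKM in shLuciferase cells.

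Of 20 partners and targets of WT1, 12 were tested and 1 was called. SYNPO, the gene of synaptopodin, an actin-associated protein of podocytes, which depend on WT1, fell to 6.56 FPKM in shETS1 cells, against 16.4 FPKM in shLuciferase cells, and the authors' deposited table lists q = 0.00964. Over 11 genes of the list the median was -0.19 on the log2 scale. Its most abundant genes were BASP1, a WT1 corepressor, at 199 FPKM in shETS1 cells and 207 FPKM in shLuciferase cells, and PODXL, at 67.1 FPKM in shETS1 cells and 69.1 FPKM in shLuciferase cells. Of 25 cofactors and targets of PAX8 and SOX17, 13 were tested and none was called, with a median of 0.18 over 12 genes. TEAD4, a partner of YAP, was at 96.2 FPKM in shETS1 cells and 124 FPKM in shLuciferase cells. The thyroid targets of PAX8, TG and SLC5A5, stayed below 0.1 FPKM in both groups.

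**Figure D3:**
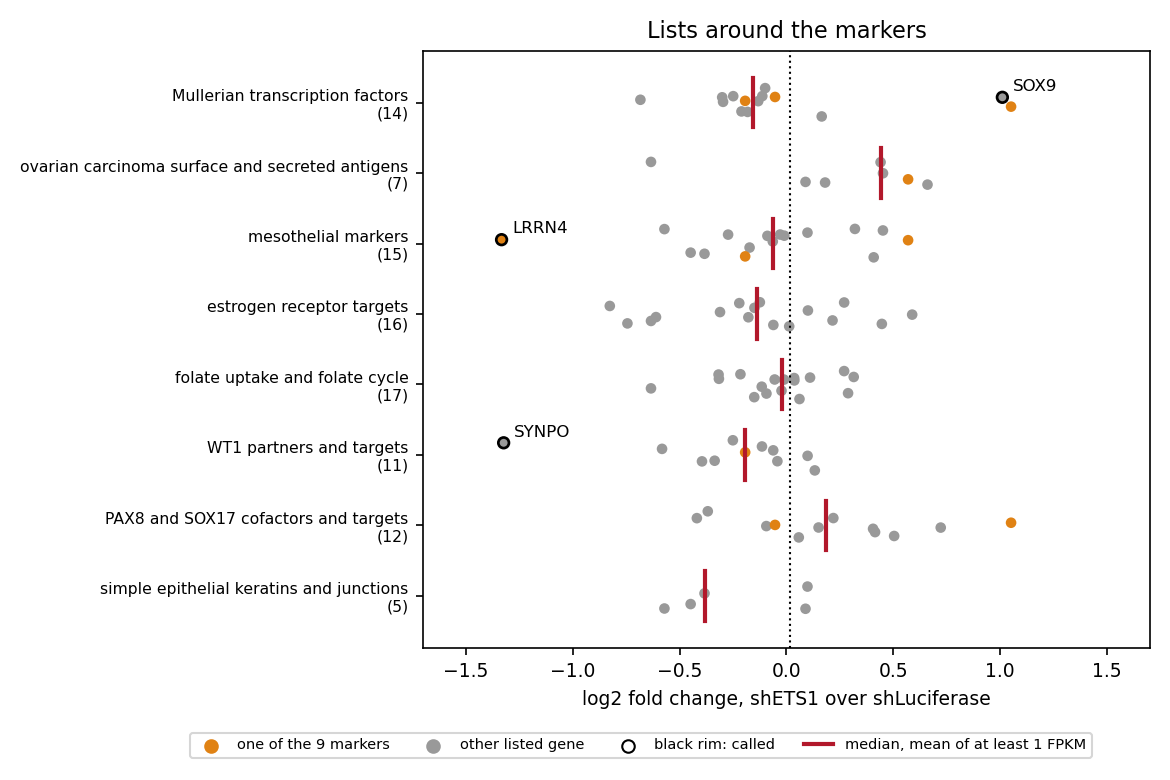
The horizontal axis is the log2 fold change of shETS1 over shLuciferase for each tested gene that averaged 1 FPKM or more, or was called, by list; numbers in parentheses count tested genes that averaged 1 FPKM or more, red bars are their medians, orange points are among the 9 markers, black rims mark called genes and the dotted line is the median of all such genes (0.02). LRRN4, SOX9 and SYNPO are the 3 called genes, and the antigen list has a median of 0.44, which is 0.18 when all 13 of its tested genes enter.

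The cell type named by the label was compared with epithelial genes and with markers of other cells. Of 18 simple epithelial keratins and junction genes, 8 were tested and none was called. The median log2 fold change was -0.38 over the 5 genes that averaged 1 FPKM or more, among them KRT7, KRT8 and KRT18, and -0.19 over all 8. These 5 genes also stand on the mesothelial or the antigen list, so this is not a separate comparison. KRT8 and KRT18 ranked 104 and 89 from the top of the table in shETS1 cells and 76 and 71 in shLuciferase cells, while CDH1, which encodes E-cadherin, was listed at 0 in shETS1 cells and 0.00572 FPKM in shLuciferase cells, and GRHL2, an epithelial transcription factor, at 0 in both. In both groups KRT8, KRT18 and PAX8 were thus abundant while E-cadherin RNA was at or near 0. Not all keratins were: KRT19 was at 3.80 FPKM in shETS1 cells and 3.55 FPKM in shLuciferase cells. The deposited locus of KRT19 overlaps EIF1 and KRT17, so some of its reads are uncertain. Of 19 markers of leukocytes, fibroblasts, endothelial cells and adipocytes, 18 were found and 17 were too low to be tested. The summed level of the 18 was 1.49 FPKM in shETS1 cells and 1.46 FPKM in shLuciferase cells, with PTPRC, CD3E, TYROBP, COL3A1, DCN and LEP listed at 0 in both. CD14 was the highest, at 0.525 FPKM in shETS1 cells and 0.688 FPKM in shLuciferase cells.

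Fold changes in this table were related to transcript base composition, and the tested markers are rich in G and C. Spearman's rho between GC content and log2 fold change was -0.46 over the 9735 tested genes that averaged 1 FPKM or more and had a GC value; genes of 1 table share the same libraries, so this is a description. LRRN4 has 64.5% GC and MSLN 65.4%, against a median of 48.8% for these genes. The median log2 fold change was -0.16 for genes within 2 percentage points of the GC content of LRRN4, and also for those that close to MSLN. Once the trend was removed, LRRN4 was at -1.18, SOX17 at 1.17, MSLN at 0.72 and WT1 at -0.13. PAX8 changed sign, from -0.05 as deposited to 0.05 with the trend removed, so no direction is read for it. The medians of all lists above, and the counts above and below 0, were taken without removing the trend. How much of them goes with GC content was not tested.

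**Figure D4:**
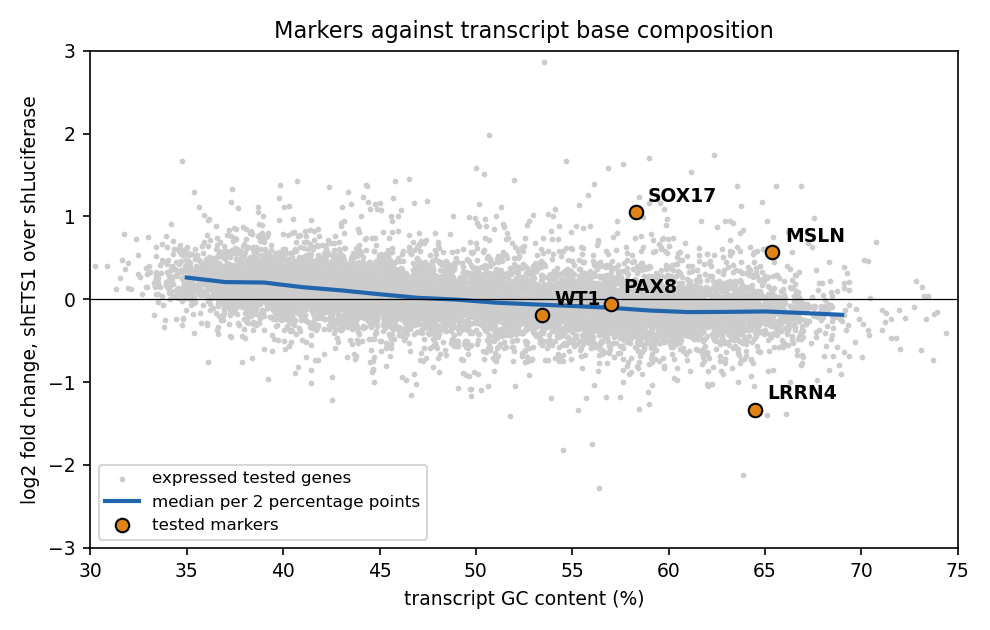
The vertical axis is the log2 fold change of shETS1 over shLuciferase, against transcript GC content in percent (horizontal axis), for tested genes that averaged 1 FPKM or more, with the median per bin of 2 percentage points in blue and the 5 tested markers in orange. The median falls with GC content, and SOX17, MSLN and LRRN4 lie further from it than PAX8 and WT1.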

How the data were processed

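RNA of 3 shETS1 and 3 shLuciferase samples was profiled; grouping follows the sample titles. The submitters' processing notes name build hg19 and the tools Cufflinks 2.1.1, TopHat2 2.0.7, SAMtools 0.1.18 and Bowtie2 2.0.6. Roles, annotation and scaling: not given in the sources used here. The deposited FPKM values are 1 per group and gene, and the p-value and q-value columns are those of the authors' comparison, per the file headers. The protocols in the labels describe poly(A) selection, random hexamers and no strand-marking step. Replicates were combined by the authors, so no test of sample spread could be run, and the labels do not say whether samples were separate cultures, so the p-values may reflect technical spread.

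Log2 fold changes were computed from the FPKM values with no pseudocount (Python 3.11.15, pandas 2.3.3, numpy 2.4.6). The deposited q-values match a Benjamini-Hochberg adjustment over 11952 tested rows within 5.16e-07; a q-value of at most 0.05 was a call. List medians used tested genes with a mean of at least 1 FPKM. GC content came from GENCODE 29 transcripts by symbol (91.2% of 10673 expressed genes, and 9 of 9 markers), and the trend was a cubic fit. The adjustment and the trend removal were checked on simulated data. Rows with a repeated symbol (4) were left out of list and rank values. Loci have 1 added to the deposited start. The markers and the 9 lists were chosen with earlier results of these data known. Named genes are the markers, ETS1, called genes of a list and its 2 most abundant genes; other named genes were chosen after their values were seen. A few genes under this rule are not reported here.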

Additional observations from a re-analysis of the deposited data

How the results depend on the processing

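Some recomputed values could not change, so their total does not measure robustness. A list with 0 called genes stays at 0 under any filter on the mean, and an added constant cannot reverse the sign of a fold change. Of 68 recomputed values, 59 kept their direction and moved by less than 1.5-fold on the linear fold scale (counts: within 1.5 times). On the log2 scale some of these moved more: with 1 FPKM added SOX17 was at 0.65, and over all tested genes the medians were 0.18 for the antigen list, 0.22 for the PAX8 and SOX17 list and -0.19 for the epithelial list, so which list is highest depends on the filter; with a minimum of 5 FPKM that of the PAX8 and SOX17 list was 0.0022. LRRN4 was the single marker called; at a q-value of 0.01, or with p-values adjusted over genes with a mean of at least 1 or of at least 5 FPKM, 0 of the markers were called, and under both of the last settings LRRN4 itself is no longer tested. At a q-value of 0.1 LRRN4 was again the one call, and SOX17 had an adjusted p of 0.113 over genes with a mean of at least 1 FPKM. The log2 ratio of LRRN4 was -0.62 with 1 FPKM added. That of PAX8 was 0.051 with the cubic GC trend removed and 0.062 with a straight one, a setting added after the data were seen. With genes of a mean of at least 5 FPKM, 0 genes were called on the Mullerian list and 0 on the mesothelial list, where a minimum of 1 FPKM also left 0. No paired analysis was possible because the table gives 1 value per group; for the same reason no replicate was left out, and the settings planned for values per sample were not run. Depth is unknown.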

Other observations

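The genes next to the markers were also listed, by a window chosen after the data were seen. Within 100 kb of LRRN4, all 4 neighbouring genes had a mean of at least 1 FPKM and none was called. FERMT1, which encodes the integrin activator kindlin-1, was at 5.41 FPKM in shETS1 cells and 5.42 FPKM in shLuciferase cells. TRMT6, a subunit of a transfer RNA methyltransferase, was at 12.2 FPKM in shETS1 cells and 10.1 FPKM in shLuciferase cells. Within 100 kb of MSLN, 12 neighbours were tested with a mean of at least 1 FPKM, with log2 fold changes between -0.68 and 0.06, all below the 0.57 of MSLN, and none was called. The lowest of them was METRN, which encodes the secreted factor meteorin, at 26.1 FPKM in shETS1 cells and 41.6 FPKM in shLuciferase cells, and the authors' deposited table lists q = 0.288. MSLNL, the paralog of MSLN beside it, was at 0.0559 FPKM in shETS1 cells and 0.0654 FPKM in shLuciferase cells. SOX17, WT1 and EMX2 had no neighbour in the table within that distance.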
